A study of Homo sapiens with 12 samples.

Results

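A set of 10 genes known from trophoblast and amnion was followed in human embryonic stem cells: the GATA factors GATA2 and GATA3, the TFAP2 factors TFAP2A, TFAP2B and TFAP2C, the cofactor VGLL1, the placental products PSG1 and CGA, and the membrane proteins ABCG2 and GABRP. The members were chosen by symbol, with earlier results of these data known. Their 24 probe sets were all those annotated to a member alone among the 54675 on each array. One probe set stood for each gene, the brightest on average over the 12 arrays, so 10 of 19775 genes are described. All groups were H9 cells, a widely used human embryonic stem cell line, with the same Tet-on construct. Adding doxycycline (Dox) to such cells turns on GCNF, the product of NR6A1 and a nuclear receptor without a known ligand. Each of 4 groups held 3 arrays. They were cells differentiated for 6 days with 1 µg/ml Dox, cells differentiated for 6 days with 1 µM retinoic acid (RA), undifferentiated cells kept 4 days in Dox at the same dose (d0 with Dox), and undifferentiated cells without it (d0). Differentiation was carried out in a medium with serum and undifferentiated cells were kept in mTeSR on a matrix coat, so medium, time and added agent all differ between day 6 and d0. The labels give no control cells without the construct, no untreated day 6 group and no clone number for the line, so an effect of Dox itself cannot be told apart from that of GCNF. Gene regulation by GCNF was the study's question, in undifferentiated cells and in differentiating ones.

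Trophoblast is the outer epithelium of the embryo that builds the placenta, and amnion is the thin epithelium around the embryo. GATA2, GATA3, TFAP2A and TFAP2C are transcription factors that act together early in the trophoblast lineage, and GATA3 and TFAP2A are also expressed in amnion and in surface ectoderm. VGLL1 binds TEAD factors and marks human cytotrophoblast, the proliferating layer, while PSG1 and CGA encode secreted products of the fused syncytiotrophoblast. Human embryonic stem cells can switch on many of these genes when they leave the pluripotent state. No single member defines a cell type: TFAP2A and TFAP2B are also neural crest factors, GATA2 and GATA3 are blood factors, and ABCG2 is found in many barrier tissues.

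Signals are the deposited linear intensities, given per array or as mean ± SD (n = 3). A log2 fold change, given ± SE, subtracts group means of log2(intensity + 16), a scale that understates changes of dim genes. Rose and fell are used of genes with an adjusted p under 0.05 in limma, fitted on the 12 arrays and adjusted with Benjamini-Hochberg over 19775 genes. Between 23.1% and 26.5% of probe sets per array lay under an intensity of 16. Replicate arrays correlated at r = 0.98 to 0.982 and no pair held identical values. The replicates are called biological without further detail, so a p-value covers only the spread seen among these arrays, which may be technical. The median of all probe sets was shifted by -0.14 on the log2 scale in Dox-labelled day 6 arrays against d0 with Dox, by -0.12 in both crossed day 6 comparisons with d0, and by less than 0.1 in the others. The arrays read whole cultures, in which fewer cells of a type and less RNA per cell cannot be told apart.

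The targeted gene was read first, as a check of the labels. NR6A1 was read by 7 probe sets, and its brightest one gave 2868.5 ± 269.9 in d0 with Dox against 1457.4 ± 115.2 in d0. Of the 7, 6 rose with Dox at d0 and 1 did not pass. At day 6 the 7 were split: 3 were higher in Dox-labelled than in RA-labelled arrays, 3 were lower and 1 did not pass. The brightest was among the higher ones, with 1008.5 ± 222.6 in Dox-labelled arrays against 527.9 ± 37.8 in RA-labelled arrays (0.89 on the log2 scale, limma adjusted p = 0.0012). The 3 lower ones had the largest called rises at d0 (3.96, 2.33 and 1.79 on the log2 scale), and the 3 higher ones rose there by 0.97, 0.85 and 0.62. Between the day 6 groups the lower ones gave -2.99 (limma adjusted p = 1.09e-04 over 54675 probe sets), -1.61 and -1.21. They were 3.09, 2.11 and 1.63 above d0 in RA-labelled arrays, and 0.11, 0.50 and 0.42 above d0 in Dox-labelled arrays. CYP26A1, which degrades retinoic acid and is a standard retinoic acid target, read 29594.1 ± 1005.4 in the Dox-labelled arrays against 271.1 ± 37.0 in the RA-labelled arrays. Its relative CYP26B1 read 5074.6 ± 345.7 in the Dox-labelled arrays against 46.6 ± 11.9 in the RA-labelled arrays. The NR6A1 probe sets with the largest called rises at d0 went against the day 6 labels, as did CYP26A1 and CYP26B1. The 3 higher NR6A1 probe sets went with the labels between the day 6 groups, but none was above d0 in either group. Against d0 they gave -0.54, -0.64 and -0.77 in Dox-labelled arrays and -1.44, -1.43 and -1.76 in RA-labelled arrays. The day 6 labels are treated as doubtful. The groups are called Dox-labelled and RA-labelled arrays throughout, a direction between them rests on those labels, and day 6 was also compared with d0 in all 4 pairings. For ACTB, the signal at the 3' end over that at the 5' end, a sign of RNA quality, was 2.33 ± 0.058 in Dox-labelled arrays, 2.59 ± 0.29 in RA-labelled arrays, 3.86 ± 0.011 in d0 with Dox and 3.24 ± 0.139 in d0, and its part in the results was not tested.

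The bases just before the start sites of 8 of the 10 members were read from RefSeq (GRCh38.p14), as 19 windows of 250 bases. They are shown for GATA2 and TFAP2A, which were among the members higher in Dox-labelled arrays. They are also shown for VGLL1, whose brightest probe set averaged 16.7 or less outside the Dox-labelled arrays, and CGA, which averaged under 16 in every group. The extended nuclear receptor element TCAAGGTCA, to which GCNF binds, was searched on both strands and was found in 0 of the 19 windows, against 0.319% of 35116 windows of all genes. The shorter core AGGTCA, which lies within the extended one, was found in 4 of 19 windows (21.1%), against 12.1% of all windows. The TFAP2 motif GCCNNNGGC was found in 5 windows, of 2 members (26.3%, against 19.8% of all), and the GATA motif AGATAA in 1 (5.26%, against 9.17%). The cyclic AMP response element TGACGTCA was found in 1 window (5.26%, against 1.65%), that of CGA. These letters do not show binding, and their absence from a window says nothing about the factor. Capitals mark any of these motifs, and each sequence runs 5′ to 3′ on the gene's strand, ending just before the start. GATA2 and TFAP2A have 2 windows each, of which the one with a nuclear receptor core is shown. GATA3, TFAP2B and ABCG2, also higher in Dox-labelled arrays, are not shown. No window of GATA3 or TFAP2B holds this core, and an ABCG2 window does. The GATA2 window shown (chr3:128493202-128493451, minus strand) holds 1 nuclear receptor core and 1 TFAP2 motif, and the other holds 2 TFAP2 motifs and no core. The TFAP2A window shown (chr6:10419660-10419909, minus strand) holds 1 nuclear receptor core, close to the start, and the other holds none of the motifs. The VGLL1 window (chrX:136531965-136532214, plus strand) holds none of the motifs. The CGA window (chr6:87095107-87095356, minus strand) holds 2 nuclear receptor cores on the other strand, 1 GATA motif and 2 cyclic AMP response elements.
GATA2: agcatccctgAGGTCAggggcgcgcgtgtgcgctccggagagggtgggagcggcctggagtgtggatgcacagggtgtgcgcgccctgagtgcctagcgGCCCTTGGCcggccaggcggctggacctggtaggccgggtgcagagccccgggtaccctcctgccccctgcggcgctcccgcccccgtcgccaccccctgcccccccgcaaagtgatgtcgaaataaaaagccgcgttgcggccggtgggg
TFAP2A: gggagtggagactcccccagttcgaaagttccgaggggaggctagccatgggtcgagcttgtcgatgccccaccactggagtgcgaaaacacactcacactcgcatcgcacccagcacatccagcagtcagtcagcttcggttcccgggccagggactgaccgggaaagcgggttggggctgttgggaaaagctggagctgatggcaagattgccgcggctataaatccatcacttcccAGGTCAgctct
VGLL1: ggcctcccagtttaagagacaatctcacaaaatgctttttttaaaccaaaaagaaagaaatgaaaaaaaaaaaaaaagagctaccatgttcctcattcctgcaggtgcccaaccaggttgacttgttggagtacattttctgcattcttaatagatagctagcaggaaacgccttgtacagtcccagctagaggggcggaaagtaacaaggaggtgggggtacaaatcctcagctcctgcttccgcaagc
CGA: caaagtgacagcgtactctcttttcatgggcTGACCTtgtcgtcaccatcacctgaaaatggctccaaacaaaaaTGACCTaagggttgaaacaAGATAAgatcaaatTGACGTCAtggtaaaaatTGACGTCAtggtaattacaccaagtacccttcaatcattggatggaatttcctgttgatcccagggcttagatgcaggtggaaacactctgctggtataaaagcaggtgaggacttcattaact

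In undifferentiated cells given Dox, GATA3 and TFAP2A rose against d0 and no other member passed, so that 2 of 10 members were called. There 12.9% of all genes were called, 7.75% higher and 5.16% lower. At day 6, GATA2, GATA3, TFAP2A, TFAP2B, VGLL1 and ABCG2 were higher and PSG1 was lower in Dox-labelled than in RA-labelled arrays, which makes 7 of 10 members, where 25.9% of all genes were called, 13.7% higher and 12.2% lower. Against d0, 5 members rose and 2 fell in RA-labelled arrays, where 50.5% of all genes were called, 25.3% higher and 25.2% lower. Against d0 with Dox, 6 rose and 3 fell in Dox-labelled arrays, where 46.1% of all genes were called, 22.2% higher and 23.9% lower. The median log2 fold change of the members was 1.18 between the day 6 groups (0.00 over all genes) and 0.09 with Dox at d0 (0.03 over all genes). It was 0.56 in RA-labelled arrays against d0 (-0.01 over all genes) and 1.56 in Dox-labelled arrays against d0 with Dox (-0.03 over all genes). No array of one group reached into the other for 7 members between the day 6 groups (41.6% of all genes) and for 5 with Dox at d0 (31.5%). The same held for 7 members in RA-labelled arrays against d0 (56.3%) and for 9 in Dox-labelled arrays against d0 with Dox (55.7%). The members were chosen with earlier results of these data known, so the shares over all genes are description and not a test.

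**Figure D1:**
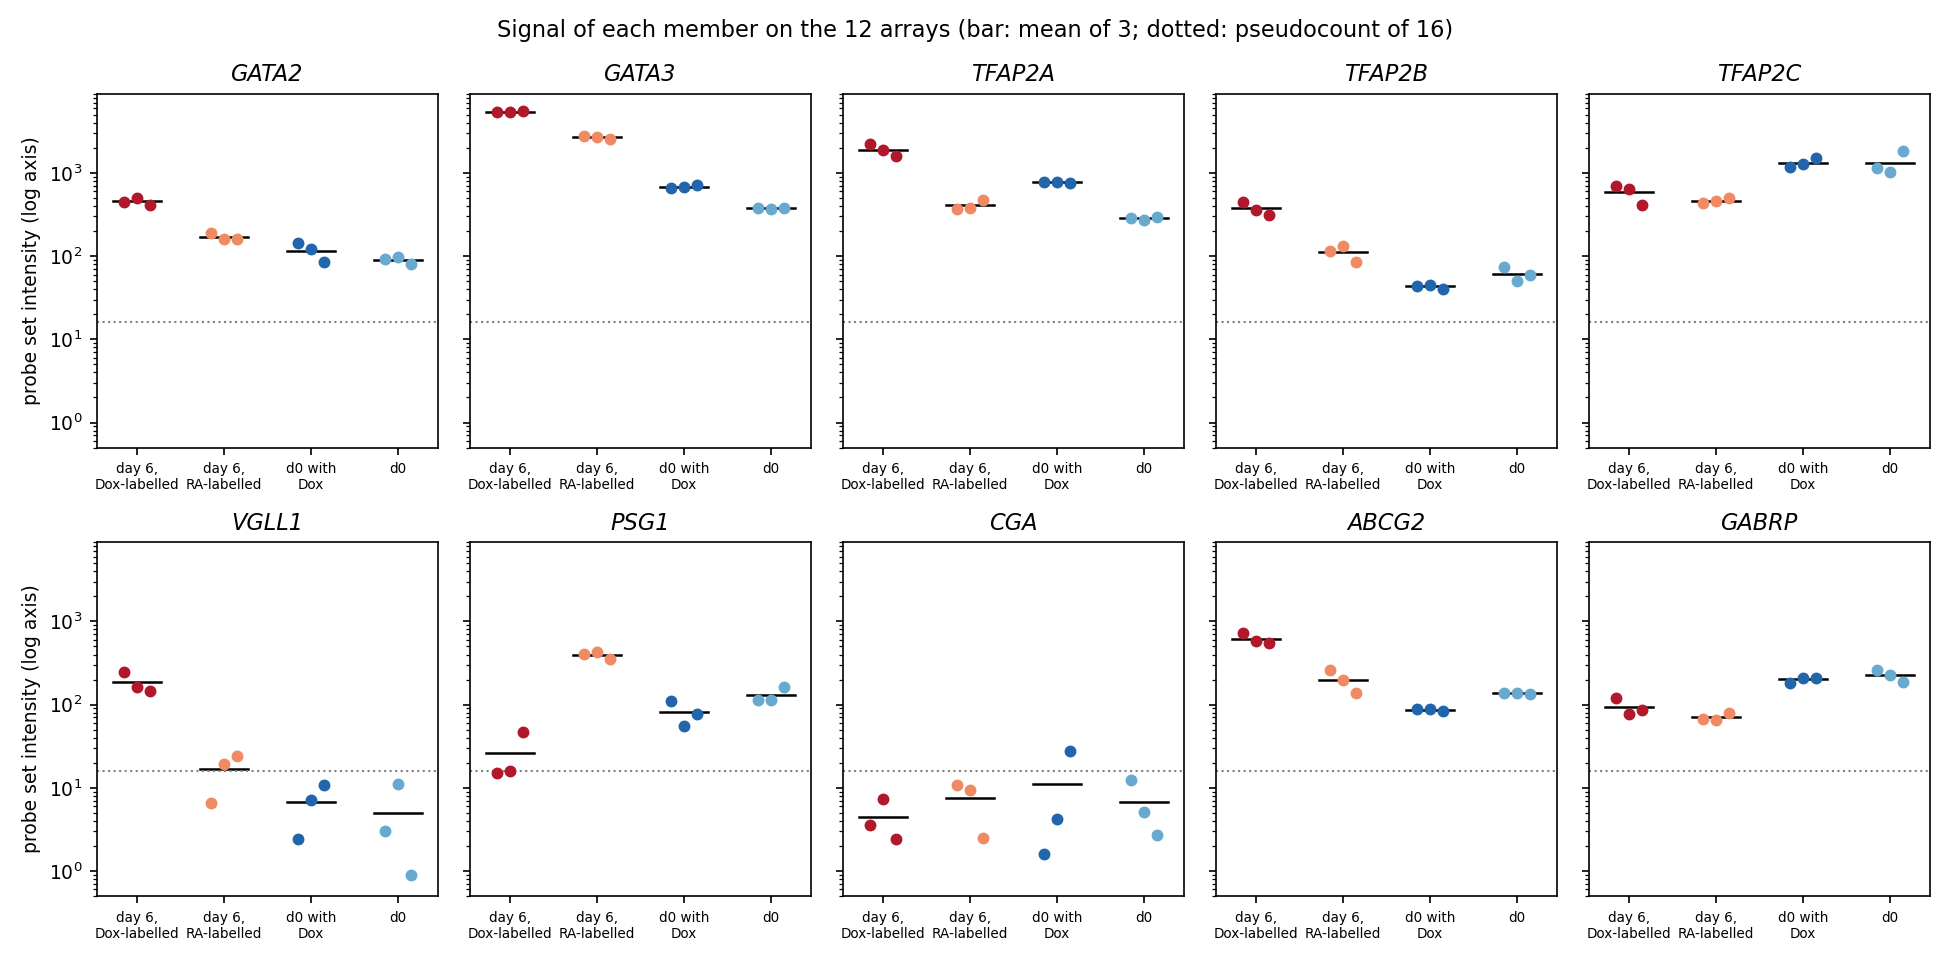
Intensity of each member's probe set (log axis) on each of the 12 arrays, with a bar at each group's mean of 3 and a dotted line at the pseudocount of 16. GATA3 lay between 5337.0 and 5588.6 in the Dox-labelled day 6 arrays and between 366.7 and 381.5 in d0, PSG1 was highest in the RA-labelled arrays, and CGA stayed near or under the dotted line.

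GATA3 stepped up with Dox in undifferentiated cells and again at day 6, while GATA2 was raised at day 6. GATA3 read 5357.8, 5337.0 and 5588.6 on the Dox-labelled day 6 arrays, 2807.7, 2706.9 and 2531.5 on the RA-labelled ones, 654.7, 682.5 and 705.9 in d0 with Dox, and 373.4, 366.7 and 381.5 in d0. No group overlapped another, and the order was Dox-labelled, RA-labelled, d0 with Dox, d0. The day 6 difference was 1.01 ± 0.06 (2.02-fold, adjusted p = 2.83e-06), close to the 0.84 ± 0.06 with Dox at d0 (1.79-fold, adjusted p = 3.11e-05). Against d0, RA-labelled arrays were 6.92-fold higher (2.79 ± 0.06, adjusted p = 9.57e-10), and Dox-labelled arrays were 7.81-fold above d0 with Dox. The d0 result rests on 1 of 3 GATA3 probe sets: the others gave 0.07 ± 0.13 and 0.24 ± 0.19 with Dox at d0, and the mean of the 3 gave 0.38 (adjusted p = 0.0355). At day 6 the 3 probe sets rose alike, by 0.88 to 1.01.

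GATA2, which works with GATA3 in trophoblast and is needed for blood stem cells, read 450.5, 502.7 and 408.3 on Dox-labelled arrays and 187.4, 160.6 and 158.4 on RA-labelled ones. It read 142.7, 121.1 and 85.8 in d0 with Dox and 93.4, 97.8 and 80.8 in d0. The day 6 groups did not overlap and the d0 groups did. The difference between the day 6 groups was 1.35 ± 0.16 (2.54-fold, adjusted p = 1.51e-04), and with Dox at d0 it was 0.29 ± 0.16 (adjusted p = 0.271). RA-labelled arrays were 1.73-fold above d0 (adjusted p = 0.0015). The 2 other GATA2 probe sets did not pass between the day 6 groups (-0.16 ± 0.27 and 0.56 ± 0.34), and the mean of the 3 rose by 0.58.

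The TFAP2 factors did not move together. TFAP2A was higher with the Dox label at both stages, TFAP2B only passed at day 6, and TFAP2C was lower at day 6 than at d0 whatever the label. TFAP2A, an AP-2 factor of trophoblast, surface ectoderm and neural crest, read 2205.7, 1906.8 and 1587.1 on Dox-labelled arrays and 372.1, 383.8 and 471.0 on RA-labelled ones. It read 784.4, 778.5 and 750.8 in d0 with Dox and 288.0, 273.2 and 295.1 in d0. The 4 groups did not overlap, and d0 with Dox stood above the RA-labelled day 6 arrays, whose log2 fold change against d0 with Dox was -0.90 (adjusted p = 1.35e-04). TFAP2A was 4.49-fold higher in Dox-labelled than RA-labelled arrays (2.17 ± 0.12, adjusted p = 1.44e-06) and 2.61-fold higher with Dox at d0 (1.39 ± 0.12, adjusted p = 7.99e-05). Its rise in RA-labelled arrays against d0 was 0.49 ± 0.12 (adjusted p = 0.00688) and fell short with the mean of its 3 probe sets (0.16, adjusted p = 0.451). A second, dimmer TFAP2A probe set gave 0.99 ± 0.33 with Dox at d0, which did not pass (adjusted p = 0.127 over 54675 probe sets), and rose by 1.23 between the day 6 groups. The third TFAP2A probe set passed in neither, with -0.58 ± 0.18 with Dox at d0 (adjusted p = 0.102) and -0.02 ± 0.18 between the day 6 groups.

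TFAP2B, a relative known from neural crest, kidney and amnion, read 450.2, 358.4 and 312.6 on Dox-labelled arrays, 114.4, 133.3 and 83.9 on RA-labelled ones, 43.5, 45.4 and 40.7 in d0 with Dox, and 74.9, 50.6 and 58.8 in d0. Dox-labelled arrays were the highest and did not overlap any other group. The day 6 difference was 1.63 ± 0.18 (3.09-fold, adjusted p = 9.93e-05). With Dox at d0 the value was -0.38 ± 0.18 (adjusted p = 0.21), below 0 although the arrays of those groups did not overlap. RA-labelled arrays were 1.63-fold above d0 (adjusted p = 0.0068). A second probe set rose by 1.58 between the day 6 groups, and the third was dim.

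TFAP2C, an AP-2 factor active in naive pluripotent cells and in trophoblast, read 693.0, 641.6 and 412.0 on Dox-labelled arrays and 439.0, 464.8 and 492.7 on RA-labelled ones. It read 1163.5, 1287.4 and 1522.8 in d0 with Dox and 1133.8, 1013.8 and 1808.5 in d0. Both day 6 groups lay below both d0 groups without overlap, and within each stage the groups overlapped. Against d0, RA-labelled arrays had a log2 fold change of -1.43 ± 0.24 (0.372-fold, adjusted p = 4.83e-04). Dox-labelled arrays against d0 with Dox gave -1.19 ± 0.24 (0.439-fold, adjusted p = 0.00193). Neither the Dox label at day 6 (0.28 ± 0.24, adjusted p = 0.453) nor Dox at d0 (0.04 ± 0.24, adjusted p = 0.94) passed.

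**Figure D2:**
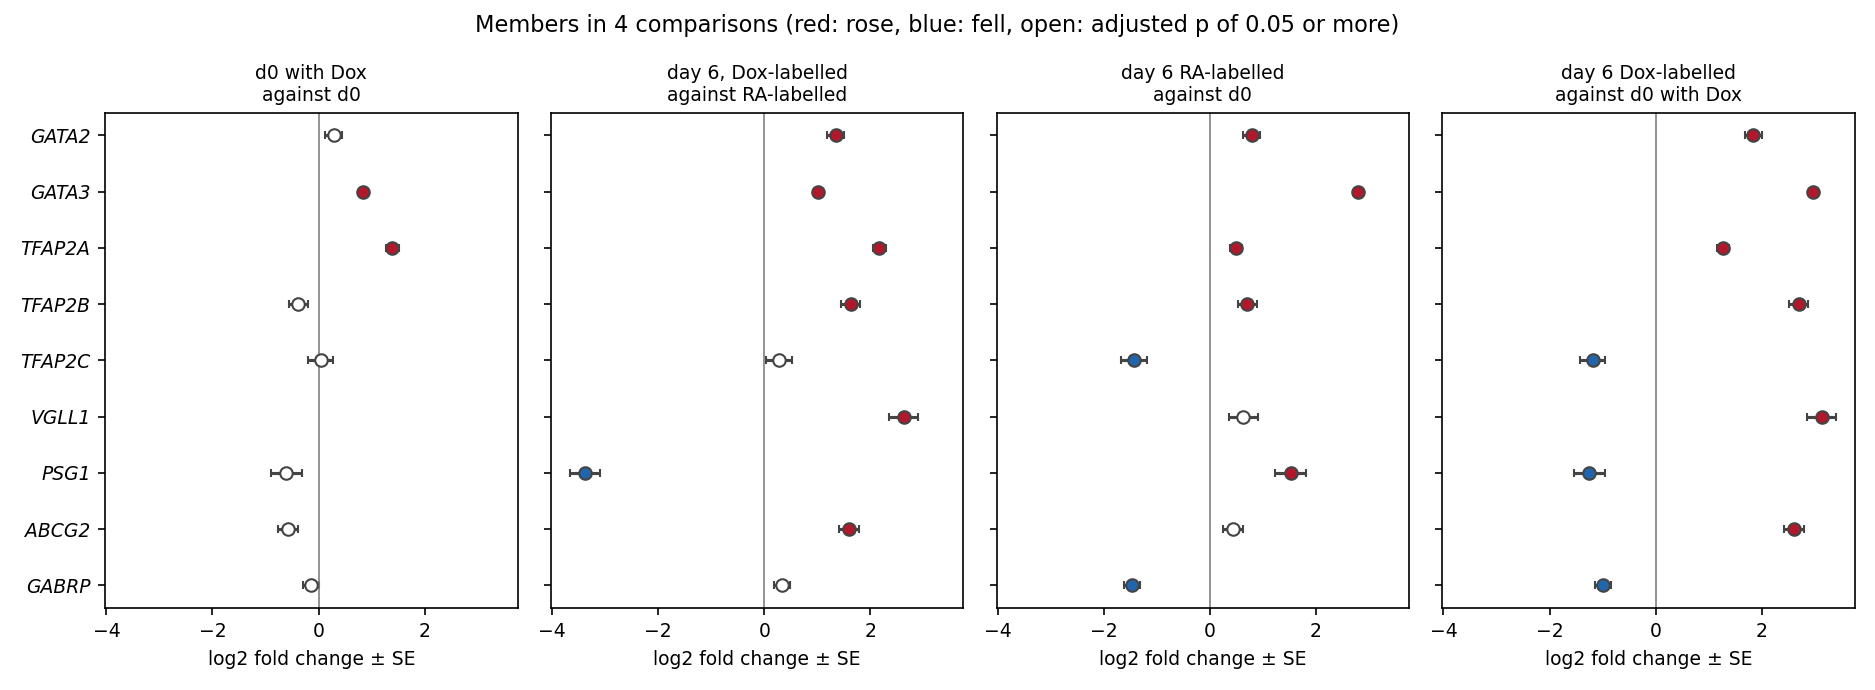
Log2 fold change of each member in 4 comparisons, with bars for the SE (12 arrays, 3 per group). Filled points passed an adjusted p of 0.05 and open ones did not, and CGA in all panels and VGLL1 at d0 are left out because both group means lay under 16. GATA3 is to the right of 0 in all 4 panels, while TFAP2C and GABRP are to the left in both comparisons of day 6 with d0.

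The brightest VGLL1 probe set was raised on the Dox-labelled day 6 arrays and lay near or under 16 on most others. It read 248.7, 164.7 and 144.9 on Dox-labelled arrays, against 6.6, 19.3 and 24.3 on RA-labelled ones. It read 2.4, 7.2 and 10.8 in d0 with Dox and 3.0, 11.2 and 0.9 in d0. The Dox-labelled arrays lay far above the other 9, which overlapped one another. The difference between the day 6 groups was 2.63 ± 0.27 (adjusted p = 7.94e-05), and Dox-labelled arrays were 3.13 ± 0.27 above d0 with Dox (adjusted p = 6.09e-06). Their size depends on the pseudocount, because the lower mean was 16.7 or less: the day 6 difference was 3.53 with a pseudocount of 1 and 1.62 with one of 64. VGLL1 in RA-labelled arrays did not pass against d0 (0.63 ± 0.27, adjusted p = 0.0852), and passed without d0 replicate 2 (0.83) or RA-labelled replicate 1 (0.87). Its 2 other probe sets did not pass between the day 6 groups (-0.30 ± 0.53 and 0.86 ± 0.44). The first of these averaged 19.0 in Dox-labelled arrays, 29.7 in RA-labelled arrays, 41.0 in d0 with Dox and 21.7 in d0. It was thus brighter than the chosen probe set in every group but the Dox-labelled one. The choice by brightness over all 12 arrays rests on the Dox-labelled arrays, so the rise is not independent of it.

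PSG1 ran opposite to the transcription factors between the day 6 groups. This pregnancy-specific glycoprotein is secreted by the placenta in large amounts. Its probe set read 14.9, 15.8 and 47.1 on Dox-labelled arrays and 403.6, 430.8 and 355.4 on RA-labelled ones. It read 111.6, 54.6 and 76.2 in d0 with Dox and 112.1, 112.7 and 162.2 in d0. RA-labelled arrays were the highest and Dox-labelled arrays the lowest, with no overlap between day 6 and d0 in either direction. The day 6 fold change was -3.38 ± 0.29 on the log2 scale (0.0962-fold, adjusted p = 2.34e-05). Its size depends on the pseudocount, because 2 of the 3 Dox-labelled arrays lay under 16: it was -4.08 with a pseudocount of 1 and -2.37 with one of 64. RA-labelled arrays were 2.87-fold above d0 (1.52 ± 0.29, adjusted p = 0.00138), and Dox-labelled arrays were 0.421-fold of d0 with Dox (-1.25 ± 0.29, adjusted p = 0.00545). With Dox at d0 the value was -0.61 ± 0.29 (adjusted p = 0.228), and it passed with the mean of the 3 probe sets (-0.64, adjusted p = 0.0358). The other PSG1 probe sets were -1.20 ± 0.17 (adjusted p = 0.00116) and -0.68 ± 0.32 (adjusted p = 0.199) between the day 6 groups.

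PSG genes are near copies of each other, and a probe set annotated to PSG1 can read others. Of 19 probe sets that name any PSG gene, 11 fell in Dox-labelled against RA-labelled arrays and 8 did not pass, against 15.5% of all probe sets called either way. In RA-labelled arrays against d0, 5 rose, 1 fell and 13 did not pass, where 38.1% of all probe sets were called. In Dox-labelled arrays against d0 with Dox, 9 fell and 10 did not pass, where 34.9% were called. With Dox at d0 limma called 0 of the 19 (5.81% of all probe sets), of which 4 had an unadjusted p under 0.05. PSG4 had the largest log2 change between the day 6 groups among the other single-symbol PSG genes, with 93.0 ± 20.8 in Dox-labelled arrays and 673.6 ± 29.8 in RA-labelled arrays (-2.68, adjusted p = 6.99e-07). PSG5 followed, with a mean of 34.5 in Dox-labelled arrays and 270.5 in RA-labelled ones (-2.52, adjusted p = 1.37e-05). The probe sets do not resolve which PSG genes changed.

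**Figure D3:**
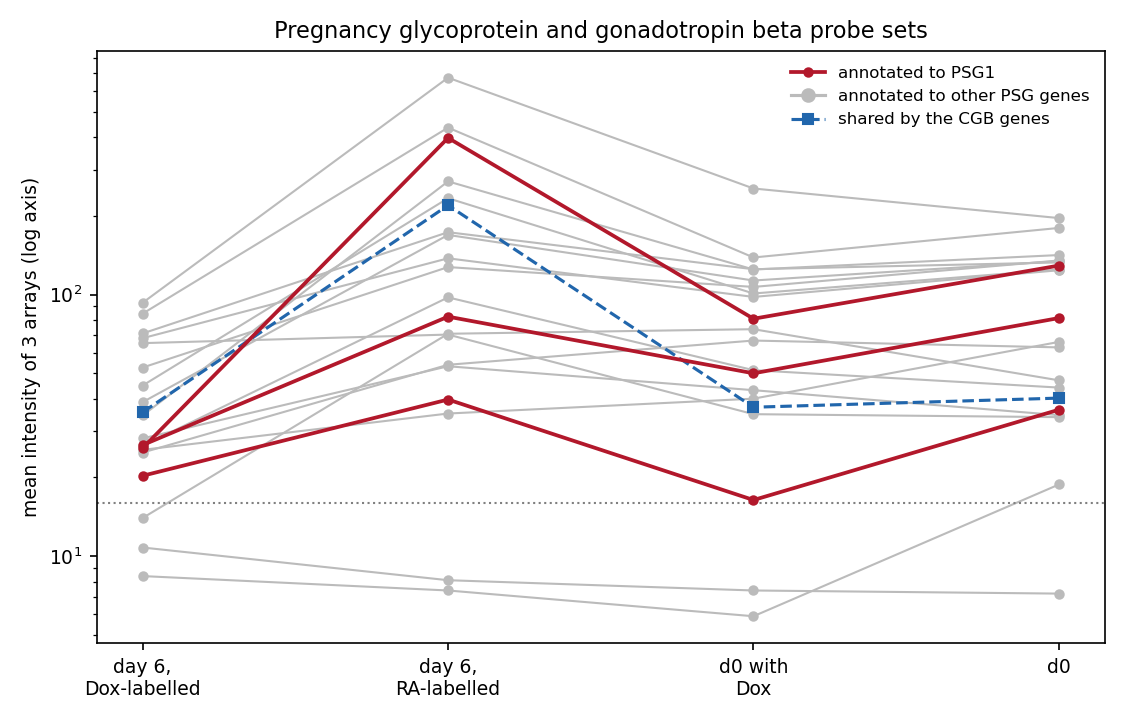
Mean intensity of 3 arrays (log axis) in the 4 groups for the 19 probe sets that name a PSG gene, with the PSG1 ones in red, and for the probe set shared by 5 CGB genes (blue squares). Lines join the groups of 1 probe set and stand for no time course, and the dotted line is the pseudocount of 16. The RA-labelled arrays hold the highest mean of the brightest PSG1 probe set, 396.6, and of the CGB probe set, 219.2.

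CGA, the alpha chain shared by chorionic gonadotropin and the pituitary glycoprotein hormones, averaged under 16 in every group. Its brighter probe set read 3.6, 7.4 and 2.4 on Dox-labelled arrays, 10.9, 9.3 and 2.5 on RA-labelled ones, 1.6, 4.2 and 27.4 in d0 with Dox, and 12.4, 5.1 and 2.7 in d0. The groups overlapped, the other CGA probe set was as dim, and no fold is given. Of 3 probe sets that name a CGB gene, for the beta chain, 1 fell between the day 6 groups, where 15.5% of all probe sets were called. The other 2 did not pass (-0.54, adjusted p = 0.586, and -0.40, adjusted p = 0.141). Those 2 did not pass in RA-labelled arrays against d0 either (-0.48 and 0.33), where 38.1% of all probe sets were called. The one that fell, shared by 5 CGB genes and described because of its values, read 35.5 ± 11.5 in Dox-labelled arrays, 219.2 ± 27.9 in RA-labelled arrays, 37.1 ± 19.7 in d0 with Dox and 40.2 ± 12.6 in d0. The log2 fold change of Dox-labelled against RA-labelled arrays was -2.21 (adjusted p = 4.92e-04 over 54675 probe sets), and RA-labelled arrays were 2.08 above d0 (adjusted p = 1.52e-04).

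ABCG2 rose with the Dox label at day 6, and GABRP was lower at day 6 under either label. ABCG2, an efflux pump that shields the placenta and also marks the side population of stem cells, read 720.9, 582.1 and 548.3 on Dox-labelled arrays and 263.3, 195.8 and 136.2 on RA-labelled ones. It read 89.1, 88.2 and 83.9 in d0 with Dox and 139.1, 137.9 and 134.5 in d0. The day 6 difference was 1.60 ± 0.19 (3.02-fold, adjusted p = 1.62e-04), without overlap. ABCG2 was lower in each d0 array with Dox than in each d0 array, but the difference did not pass (-0.57 ± 0.19, adjusted p = 0.0761). It passed with the 6 arrays of that comparison alone (adjusted p = 0.0111) or with a trended robust variance (adjusted p = 0.0425). RA-labelled arrays spread widely and overlapped d0 (0.44 ± 0.19, adjusted p = 0.0748), and that difference passed under quantile normalization (0.50), under median centring (0.53) and without RA-labelled replicate 3 (0.67).

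GABRP, the pi subunit of the GABA-A receptor, read 119.7, 76.1 and 86.5 on Dox-labelled arrays and 67.3, 65.8 and 78.4 on RA-labelled ones. It read 184.0, 210.2 and 210.1 in d0 with Dox and 261.4, 227.1 and 188.9 in d0. All day 6 arrays lay below all d0 arrays, and within each stage the groups overlapped. RA-labelled arrays against d0 gave -1.47 ± 0.15 (0.36-fold, adjusted p = 1.64e-05), and Dox-labelled arrays against d0 with Dox gave -1.0 ± 0.15 (adjusted p = 3.57e-04). The day 6 groups did not differ past the threshold (0.33 ± 0.15, adjusted p = 0.154).

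Day 6 was then set against d0 in the 4 possible pairings, which share arrays. GATA2, GATA3 and TFAP2B rose in all 4, as did 15.1% of all genes. For GATA2 the smallest of these, RA-labelled arrays against d0 with Dox (0.50, adjusted p = 0.0221), no longer passed without d0 with Dox replicate 3 (0.32) or RA-labelled replicate 1 (0.43), with the mean of its probe sets (0.17), or with the 6 arrays of that comparison alone (0.50, adjusted p = 0.0705). TFAP2C and GABRP fell in all 4, as did 15.6% of all genes. ABCG2 rose in 3 and did not pass in 1, TFAP2A rose in 3 and fell in 1, and VGLL1 rose in the 2 that hold Dox-labelled arrays. PSG1 rose in the 2 that hold RA-labelled arrays and fell in the other 2.

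**Figure D4:**
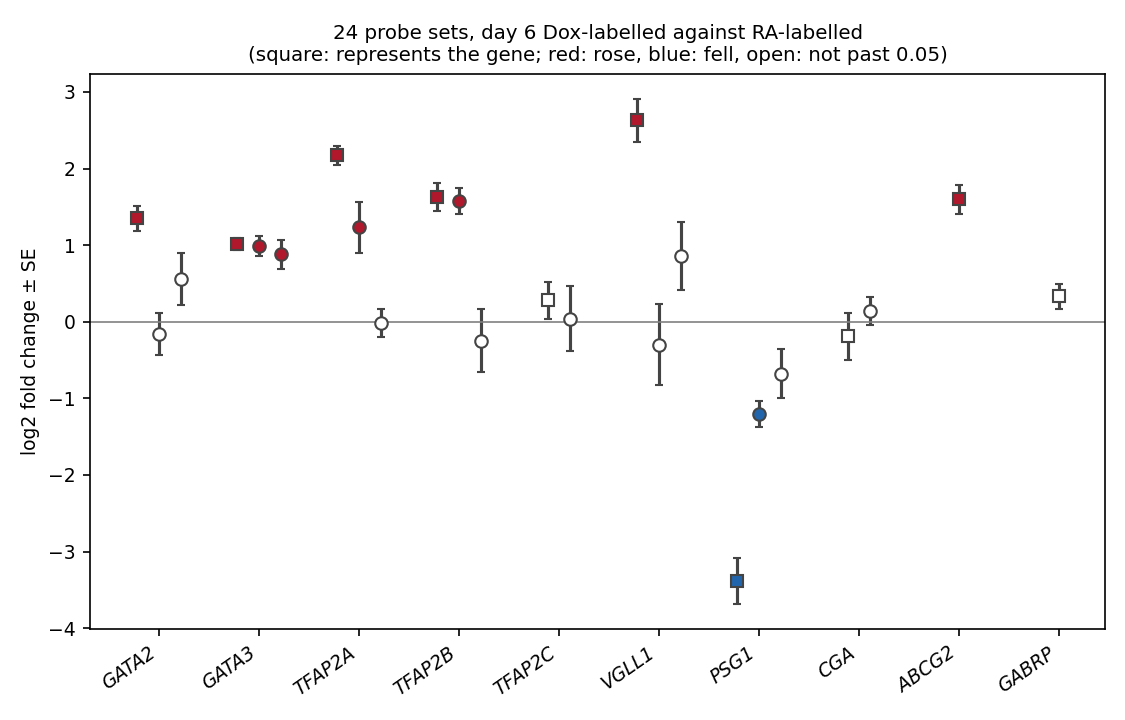
Log2 fold change ± SE of the 24 probe sets in Dox-labelled against RA-labelled day 6 arrays (3 each). Squares stand for the genes elsewhere, and filled markers passed an adjusted p of 0.05 over 54675 probe sets. The 3 GATA3 probe sets rose by 0.88 to 1.01, whereas for GATA2 and VGLL1 the square rose and the circles did not pass.

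Across the members' 24 probe sets, 10 rose, 2 fell and 12 did not pass between the day 6 groups (15.5% of all probe sets were called). With Dox at d0, 2 rose and 22 did not pass (5.81% of all called). In RA-labelled arrays against d0, 7 rose and 3 fell (38.1% of all called), and in Dox-labelled arrays against d0 with Dox, 9 rose and 5 fell (34.9% of all called). The brightest probe sets of GATA2 and VGLL1 were thus the only called ones of their genes between the day 6 groups, while GATA3, TFAP2A, TFAP2B and PSG1 had at least 1 further probe set called the same way. With all probe sets of a gene averaged, the day 6 differences shrank to 0.58 for GATA2, 1.12 for TFAP2A, 0.98 for TFAP2B, 1.07 for VGLL1 and -1.75 for PSG1, and each still passed. TFAP2A with Dox at d0 shrank to 0.60 (adjusted p = 0.0394).

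The effect of the Dox label at day 6 was compared with that of Dox at d0 by the difference of these contrasts, a comparison chosen after the data were seen. The day 6 contrast is against RA-labelled arrays, and the d0 contrast is against untreated cells. In their difference, an effect of retinoic acid cannot be told apart from a change in the effect of Dox. The difference passed for 6 of 10 members, against 24.2% of all genes. ABCG2 differed by 2.17 ± 0.26 (adjusted p = 2.96e-04), TFAP2B by 2.0 ± 0.25 (adjusted p = 3.30e-04) and PSG1 by -2.77 ± 0.42 (adjusted p = 0.00101). Both ABCG2 and TFAP2B were higher in Dox-labelled than in RA-labelled arrays, and lower in d0 with Dox than in d0, short of the threshold. GATA3 did not pass (0.18 ± 0.09, adjusted p = 0.203), and it passed with the mean of its probe sets (0.58, adjusted p = 0.0145). These values hold for the day 6 direction as labelled. With that direction turned (RA-labelled minus Dox-labelled, tried after the data were seen), the difference from the effect of Dox at d0 passed for 7 of 10 members, against 18.1% of all genes: the same 6, each with the opposite sign, and GATA3. The order of sizes changed, with PSG1 at 3.99 ± 0.42 (adjusted p = 1.21e-04), TFAP2A at -3.55 ± 0.17 and GATA3 at -1.85 ± 0.09 (adjusted p = 7.81e-07 each), and ABCG2 at -1.02 ± 0.26 (adjusted p = 0.0232).

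Relatives and partners of the members were counted from lists of known genes, also chosen with earlier results of these data known. Between the day 6 groups 13.7% of all genes rose and 12.2% fell. Of 8 GATA relatives and cofactors, 5 rose in Dox-labelled against RA-labelled arrays and 3 did not pass (median 1.37). The cofactor ZFPM2 averaged 647.4 ± 49.9 in Dox-labelled arrays and 65.2 ± 22.8 in RA-labelled arrays (3.07, adjusted p = 3.95e-06). LMO2, which bridges GATA and bHLH factors in blood, averaged 1241.6 ± 71.1 in Dox-labelled arrays and 172.5 ± 23.3 in RA-labelled arrays (2.74). GATA6, an endoderm and heart factor that is also made in trophoblast and amnion, rose 33.6-fold in Dox-labelled arrays against d0 with Dox and 6.83-fold in RA-labelled arrays against d0. With Dox at d0 GATA6 gave 0.04 ± 0.10 (adjusted p = 0.863).

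Of 7 TFAP2 relatives and cofactors, 3 rose and 1 fell between the day 6 groups, and 2 rose with Dox at d0. Over all genes, 13.7% rose and 12.2% fell between the day 6 groups, and 7.75% rose with Dox at d0. CITED2, a coactivator of TFAP2 factors, averaged 2765.7 ± 131.9 in d0 with Dox and 832.5 ± 102.6 in d0 (1.72, adjusted p = 4.22e-06). At day 6 it averaged 1060.2 ± 37.7 in Dox-labelled arrays and 2962.5 ± 151.8 in RA-labelled arrays (-1.47, adjusted p = 3.14e-06), opposite to TFAP2A. The largest of the 3 rises between the day 6 groups was that of CITED4 (0.90, adjusted p = 0.013). KCTD1, which restrains TFAP2 factors, rose by 0.31 with Dox at d0 and by 0.47 between the day 6 groups. Of 11 genes of the VGLL, TEAD and YAP list, which also holds the YAP targets CCN1 and CCN2, 1 rose and 2 fell between the day 6 groups, VGLL3 and CCN2. TEAD4, the TEAD factor of early trophoblast, was 0.40 above RA-labelled arrays there, and had a value of -0.59 with Dox at d0 (adjusted p = 0.0029). VGLL3 averaged 705.7 in Dox-labelled arrays and 1125.2 in RA-labelled ones (-0.67, adjusted p = 0.00195), opposite to VGLL1.

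The ABCG and GABA-A relatives were mostly dim. Of 4 other ABCG transporters, ABCG1, a cholesterol exporter, fell between the day 6 groups, to 48.5 in Dox-labelled arrays against 135.2 in RA-labelled ones (-1.24, adjusted p = 0.0217). Of 11 other GABA-A subunits measured, 3 rose and 1 fell there (13.7% and 12.2% of all genes). The beta subunit GABRB2 averaged 190.1 ± 76.7 in Dox-labelled arrays and 25.2 ± 9.1 in RA-labelled arrays (2.27, adjusted p = 2.34e-04). The alpha subunit GABRA5 fell in each of the 4 comparisons, with -1.71 on the log2 scale in RA-labelled arrays against d0.

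The wider trophoblast and amnion lists were uneven. Between the day 6 groups 13.7% of all genes rose and 12.2% fell. Of 14 trophoblast transcription factors, 7 rose and 1 fell between the day 6 groups. The homeobox gene MSX2 averaged 2678.0 ± 31.2 in Dox-labelled arrays and 531.1 ± 61.3 in RA-labelled arrays (2.31, adjusted p = 1.99e-06). TBX3 followed (2.24), and EOMES, a factor of mouse trophoblast stem cells and of endoderm, fell (-0.88). ELF5 and GCM1, defining regulators of trophoblast stem cells and of syncytiotrophoblast, averaged under 16 in every group, and CDX2 did not pass (-0.60 ± 0.37). Of 12 amnion genes measured, 8 rose between the day 6 groups and 4 did not pass. IGFBP3 averaged 26619.9 ± 1094.1 in Dox-labelled arrays and 2448.3 ± 627.8 in RA-labelled arrays (3.47, adjusted p = 4.60e-07), and the matrix protein gene POSTN rose by 3.38. VTCN1, an amnion and trophoblast surface protein, did not pass (0.61 ± 0.21, adjusted p = 0.0575).

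Of 16 cytotrophoblast and epithelial genes, 8 rose and 4 fell between the day 6 groups (13.7% and 12.2% of all genes). Against d0, 6 of the 16 rose and 6 fell in RA-labelled arrays (25.3% and 25.2% of all genes). Against d0 with Dox, 6 rose and 6 fell in Dox-labelled arrays (22.2% and 23.9% of all genes). KRT7, a keratin of trophoblast and many epithelia, was 16.7-fold above d0 in RA-labelled arrays and 33.8-fold above d0 with Dox in Dox-labelled arrays. KRT19 rose by 1.89 between the day 6 groups and PAGE4 fell (-2.02). Of 18 syncytiotrophoblast genes, 1 rose and 1 fell there and 16 did not pass. The one that rose was TFPI2, a protease inhibitor, with 18441.7 ± 184.2 in Dox-labelled arrays and 1246.1 ± 102.3 in RA-labelled arrays (3.87, adjusted p = 1.49e-09), and the one that fell was KISS1 (-1.63). CSH1, ERVFRD-1 and ENDOU were under 16 in every group. Of 8 extravillous genes, 6 rose in RA-labelled arrays against d0 (25.3% of all genes), and PLAC8 rose by 3.39. Between the day 6 groups 2 rose and 2 fell, with PLAC8 at 460.8 ± 51.5 in Dox-labelled and 1215.8 ± 23.5 in RA-labelled arrays (-1.38).

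Markers of other cells that use these factors moved as well, and their part in the members' values was not tested. Between the day 6 groups 13.7% of all genes rose and 12.2% fell. Of 8 neural crest genes, 3 rose and 1 fell between the day 6 groups, and their summed intensity was 11401 to 12570 in Dox-labelled arrays, 7525 to 8344 in RA-labelled arrays, 3014 to 3599 in d0 with Dox and 5868 to 6595 in d0. SOX9 averaged 2880.3 ± 299.6 in Dox-labelled arrays and 540.9 ± 39.0 in RA-labelled arrays (2.38). Of 7 surface ectoderm genes, 2 rose there and 5 did not pass. With Dox at d0, 3 of the 7 rose and 4 did not pass (7.75% of all genes rose). KRT14, a defining keratin of epidermis, was the only 1 of the 7 under 16 in every group. The sum of the 7 genes was 28943 to 29267 in Dox-labelled arrays, 23816 to 25116 in RA-labelled arrays, 16892 to 17793 in d0 with Dox and 13137 to 13843 in d0. Such sums add linear intensities, so a few bright genes can set them, and they are no measure of a cell type. Of 9 early blood genes, 2 rose, among them MYB (2.58), and SPI1 and HBZ were under 16 in every group. The sum of the blood genes was 602 to 728 in Dox-labelled arrays, 398 to 454 in RA-labelled arrays, 685 to 847 in d0 with Dox and 676 to 732 in d0. Of 12 pluripotency genes, 12 fell in RA-labelled arrays against d0 (25.2% of all genes). With Dox at d0, 4 fell and 1 rose (5.16% and 7.75% of all genes). NANOG averaged 36.7 in Dox-labelled arrays, 639.8 in RA-labelled arrays, 5467.6 in d0 with Dox and 11671.6 in d0.

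Genes with the most similar pattern were found by the root mean square difference of centred log2 values over the 12 arrays, among 10962 genes at least as bright as the median gene in some group, as a description without a test. TFAP2B and ABCG2 were each other's nearest gene (0.20), and the BMP pseudoreceptor BAMBI was next to both (0.21 from TFAP2B and 0.20 from ABCG2). ENC1 lay nearest to GATA3 (0.08), followed by FLI1 (0.17) and TIMP3 (0.21). GATA2 lay nearest to PLA2G4A (0.15), TFAP2A to PLAGL1 (0.22), TFAP2C to MRPL16 (0.21) and GABRP to ZNF33A (0.13). PSG1 had no close neighbour: GREM1 (0.53), PSG5 and PSG7 (0.54 each) came first. VGLL1 and CGA were too dim for this search.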

How the data were processed

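Biotin-labelled total RNA of H9 cells was read on 12 oligonucleotide arrays, and groups were taken from the sample titles. Per probe set, the deposited value is an intensity on a linear scale. Background correction, summary and scaling by the authors are not given in the sources used here. The trimmed mean of the deposited intensities (2% off each end) was 500.1 on each array, so signals are relative to the rest of an array, and precision is limited by the number of arrays. The array median was 64.2 to 78.0.

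The platform annotation lists 42898 of the 54675 probe sets, 41097 of them with 1 symbol, and symbols were updated through gene IDs for 41043. Each gene was read from the probe set of that symbol alone whose log2 values averaged highest. Values were tested as log2(intensity + 16) with limma 3.58.1 (lmFit and eBayes, R 4.3.3), with a mean per group on 12 arrays and a threshold of 0.05. Probe sets were also tested and adjusted over all 54675.

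The members and the other gene lists were chosen with earlier results of these data known. Genes named from a list came mainly from its 2 largest called rises and 2 largest called falls per comparison, but not all of these were named. Some genes that did not pass or lay under 16 were named as well. Genes of like pattern were the 3 nearest to each member bright enough. The fit of d0 with Dox against d0 was tested on simulated data: over 19775 genes, 2 of 50 genes changed 1.25-fold were recovered, 34 of 50 changed 1.5-fold, 44 of 50 changed 2-fold and 50 of 50 changed 4-fold, with 10 false calls among 19575. The changed genes were drawn only from genes at least as bright on average as the median gene, so recovery of dimmer genes was not measured. These rates cannot be carried over to the dimmer members. Alternatives were quantile normalization, median centring, pseudocounts of 1 and 64, averaging the probe sets of a gene, testing all probe sets, testing only genes above the median, a trended robust variance, fitting the 6 arrays compared by themselves, a block for the replicate number, and leaving out each array. The contrast of day 6 with d0 effects, and the same with the day 6 direction turned, were added after the data were seen. Array batches were not tested, since scan dates were not analysed here. Promoter windows came from RefSeq (GRCh38.p14).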

Additional observations from a re-analysis of the deposited data

Results flagged for a closer look

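The effect of the Dox label at day 6 (Dox-labelled minus RA-labelled) differed from the effect of Dox at d0 (d0 with Dox minus d0) in 6 members, by limma's test of the difference on the log2 scale. GATA2 differed by 1.05 (adjusted p = 0.00643), TFAP2A by 0.78 (adjusted p = 0.0088), TFAP2B by 2.0 (adjusted p = 3.30e-04), VGLL1 by 2.51 (adjusted p = 0.00121), ABCG2 by 2.17 (adjusted p = 2.96e-04) and PSG1 by -2.77 (adjusted p = 0.00101). The day 6 contrast is against RA-labelled arrays, and the d0 contrast is against untreated cells. An effect of retinoic acid therefore cannot be told apart from a change in the effect of Dox. The comparison was chosen after the data were seen, it called 24.2% of all genes, and it holds for the day 6 direction as labelled. With that direction turned, each of the 6 had the opposite sign, from -3.55 for TFAP2A to 3.99 for PSG1, and GATA3 passed as well (-1.85, adjusted p = 7.81e-07). With all probe sets of a gene averaged it no longer passed for GATA2 (0.31), TFAP2A (0.53) and VGLL1 (0.75). With a pseudocount of 1 it no longer passed for VGLL1 (2.93, adjusted p = 0.0728).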

How the results depend on the processing

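Of the members' log2 fold changes recomputed under the alternatives, 972 kept their direction and their side of the threshold, 11 passed in addition, 9 no longer passed and 13 changed sign. With the day 6 direction turned, the added difference was -1.64 for GATA2, -1.85 for GATA3, -3.55 for TFAP2A, -1.25 for TFAP2B, -0.32 for TFAP2C, -2.76 for VGLL1, 3.99 for PSG1, -1.02 for ABCG2 and -0.19 for GABRP, a change of sign that the turn itself can bring. The other sign changes were those of TFAP2C, which was not called in those comparisons. With Dox at d0 it was -0.04 without d0 replicate 1, -0.12 without d0 replicate 2 and -0.06 without d0 with Dox replicate 3, over a range of -0.12 to 0.29 with 1 array left out. The added difference of effects was -0.01 without d0 replicate 3, over a range of -0.01 to 0.46. No fold was compared for CGA, or for VGLL1 with Dox at d0, where the group means lay under 16.

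With 1 array left out, members called stayed at 2 with Dox at d0, 7 between the day 6 groups and 6 for the added difference. They stayed at 9 in Dox-labelled arrays against either d0 group, and were 7 to 8 in RA-labelled arrays against either d0 group. Of all 19775 genes, 4043 to 4490 were then called between the day 6 groups and 4014 to 4567 for the added difference. In Dox-labelled arrays 8857 to 9156 were called against d0 and 8296 to 8370 against d0 with Dox. In RA-labelled arrays 9272 to 9520 were called against d0 and 8857 to 8894 against d0 with Dox. Testing only genes above the median left 3 members to test, by construction. Of these, 2 were called between the day 6 groups, 3 in each comparison of day 6 with d0 and 1 for the added difference. Genes called with Dox at d0 were 2552, against 1522 with the 6 arrays fitted alone and 1786 to 2323 with 1 array left out. With more features tested, all probe sets gave 8471 calls between the day 6 groups, 20829 and 19615 in RA-labelled arrays against d0 and d0 with Dox, 20478 and 19061 in Dox-labelled arrays against d0 and d0 with Dox, and 7314 for the added difference.

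Same-numbered arrays of different groups did not deviate together: the correlations of 18 pairs lay between -0.008 and 0.048, so the numbers were not treated as pairs. With the replicate block 2 members were called with Dox at d0, 7 between the day 6 groups, 8 in RA-labelled arrays against d0 and 9 in Dox-labelled arrays against d0 with Dox. The one call that changed there was ABCG2 in RA-labelled arrays against d0 (0.44, adjusted p = 0.042). Signals near or under 16 limit what can be said of CGA and VGLL1.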
